A study of Equus caballus with 14 samples.

Results

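The genes described here are the beta-defensins DEFB4A and DEFB4B and serum amyloid A (SAA), measured in the mediastinal lymph nodes of horses with and without recurrent airway obstruction (RAO, or heaves). They were taken by probe name from the equine array, 5 probes for DEFB4A, 2 for DEFB4B and 1 for SAA, which makes 3 of the 599 genes that could be named on the array and 8 of its 43603 probes. They were chosen by their measured log2 intensity in these same arrays, on the difference between RAO-affected and control horses. Their group differences are therefore given as a description and without a test. Tests are kept for the relations among the horses of a group and for genes outside the choice.

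Total RNA from the mediastinal lymph node of 7 RAO-affected and 7 healthy control horses, all of mixed breed, was labelled with Cy3 and hybridised to 1 array per horse. The animals of both groups had been on pasture and were then stabled and fed dusty hay, an exposure that brings on airway obstruction in susceptible horses and not in controls. The RAO-affected horses were older on average, so age and disease cannot be told apart here. A piece of whole node holding cortex and medulla was used, and a change in the number of cells of a type cannot be told apart from a change in RNA per cell. Horses are called by group and number, with odd numbers for controls and even numbers for RAO-affected horses.

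Beta-defensins are short cationic peptides with a core of cysteines joined by disulphide bonds. They damage microbial membranes and attract immune cells, and epithelial cells make the DEFB4 type in response to bacterial products, interleukin-1 and interleukin-17. Serum amyloid A is a lipoprotein-bound acute-phase protein that the liver releases after interleukin-1 and interleukin-6, and that macrophages and epithelia also make. In horses, SAA in blood is the standard clinical marker of acute inflammation.

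The identity of DEFB4A rests on the transcript that the study's RT-PCR primer table lists under that name, which is the target of 5 probes. The pair of DEFB4A primers is shown because these are the only sequences of the 3 genes given in the sources used here. Each is written 5′ to 3′, and no base is marked by capitals.
DEFB4A forward primer: tctccttgtgttcctcgttg
DEFB4A reverse primer: tgaccctggaaggcacttag
DEFB4B and SAA were named by matching the array's accessions to RefSeq. In the RefSeq gene order DEFB4B lay between LOC100629456 and DEFA31L, an alpha-defensin-like gene, with SPAG11B, itself a defensin-type gene, one step further. SAA lay between LOC100056747 and LOC100056819. RefSeq lists 19 genes with a DEFB symbol, of which 1 was located on the array, and no probe was named SAA1. Whether the probes of the defensins also bind each other's transcripts was not tested.

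All values are log2 intensities after quantile normalization unless stated otherwise. Between 32696 and 39947 of the probes were well above background on an array, and between 1439 and 2613 were saturated, that is, at the scanner's ceiling. The arrays lay on 4 slides. Slide 1 held controls 3 and 5 and RAO-affected 4, and its median local background was 45.5 to 46 intensity units against 55.5 to 97 on the other slides. A probe was called where the groups differed at least 2-fold with an unadjusted limma p under 0.05. Of 38674 probes tested, 569 were called (1.47%), of which 425 (1.1%) were higher and 144 (0.372%) lower in RAO-affected horses. Without RAO-affected 4 the count was 1117, and without slide 1, an alternative chosen after seeing the data, it was 1111. None passed an adjusted p under 0.05 in limma or in the methods' t-test run without pairs, or 0.0% of those tested, against 2177 (5.63%) and 2033 probes at an unadjusted p under 0.05.

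DEFB4A was higher in RAO-affected horses by about 10-fold at each of its probes. In control horses the probe with the highest signal read 9.26 at the lowest, 10.58 at the median and 13.47 at the highest. In RAO-affected horses it read 12.16, 13.94 and 16.08. The highest control was control 5, and 5 of the 7 RAO-affected horses were above it. The other 6 controls, from 9.26 to 11.30, were all below the lowest RAO-affected horse, RAO-affected 12. The means were 14.21 ± 1.39 (SD, n = 7) and 10.90 ± 1.31 (SD, n = 7), a difference of 3.31 (SE 0.68) or 9.95-fold.

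The 5 DEFB4A probes gave differences from 3.25 to 3.35, or 9.53-fold to 10.2-fold. They held the first 5 ranks by difference among all probes tested, which is the property they were chosen for. Saturation was flagged at 4 of the 5 probes and on each of these only on the array of RAO-affected 8, whose value is thus a lower limit. The probe that was flagged on no array gave 10.1-fold. On the array of RAO-affected 8 it read 64994.6 before scaling, against 61292.5 to 68712.1 at the flagged probes. Its fold may therefore be a lower limit too. Before scaling, the intensity of the highest probe ran from 861.5 to 15557.5 in controls and from 4734 to 68712 in RAO-affected horses.

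DEFB4B was also higher in RAO-affected horses, and its signal came close to the scanner's ceiling in most of them. Controls read 10.03 at the lowest, 12.55 at the median and 14.39 at the highest. RAO-affected horses read 14.27, 15.70 and 15.95. Control 5 was again the highest control and overlapped RAO-affected 12 alone, so that all RAO-affected horses but that 1 exceeded the highest control. The means were 15.50 ± 0.60 (SD, n = 7) and 12.64 ± 1.36 (SD, n = 7), a difference of 2.86 (SE 0.53) or 7.27-fold.

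This DEFB4B probe was saturated in RAO-affected 2, 8 and 14 and in no control. The second DEFB4B probe was saturated in RAO-affected 8 and 14 and gave 15.20 ± 0.79 against 12.16 ± 1.37 (SD, n = 7 each), a difference of 3.04 (SE 0.56) or 8.21-fold. The DEFB4B differences are lower limits as far as the saturated arrays go. All 8 probes of the 3 genes were called higher, beside 1.1% of all probes tested, and nothing is read from that count because the same contrast chose them.

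**Figure D1:**
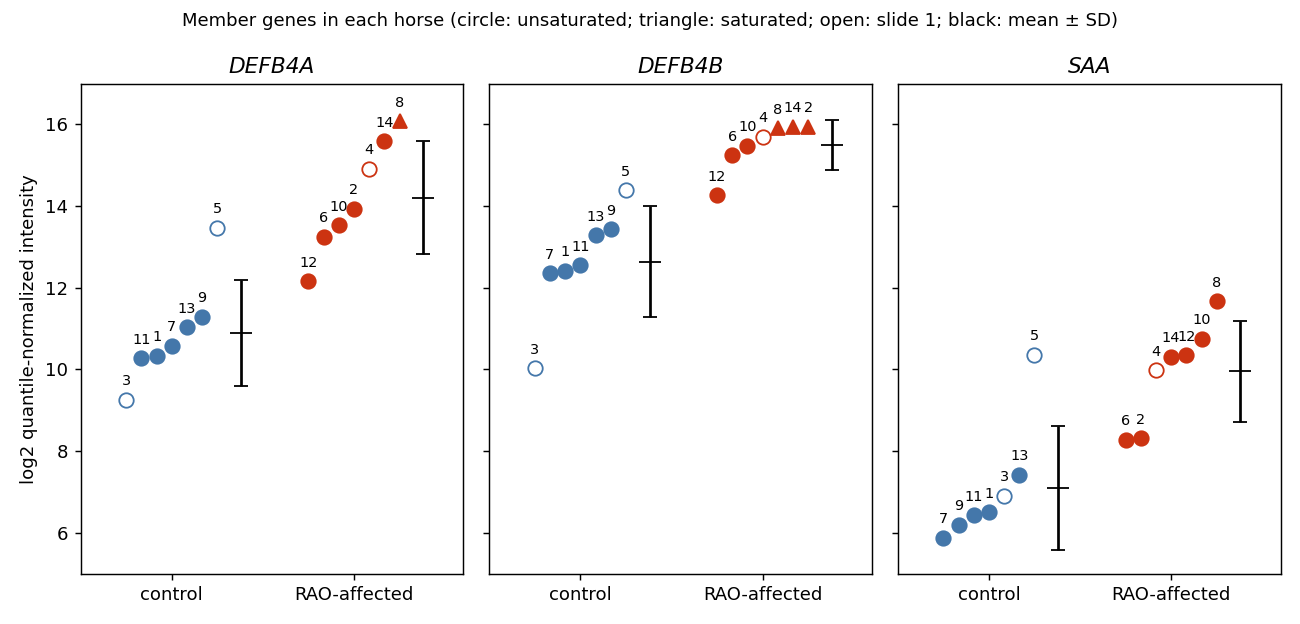
Log2 quantile-normalized intensity of DEFB4A, DEFB4B and SAA (vertical axis, the probe with the highest mean for each gene) in 7 control and 7 RAO-affected horses, with each horse's number, triangles for saturated spots, open symbols for slide 1 and bars for mean ± SD. Control 5 is the highest control in all 3 panels, and the RAO-affected values of DEFB4B crowd below 16.

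SAA was higher in RAO-affected horses as well, and its probe was saturated on no array. Controls read 5.88 at the lowest, 6.50 at the median and 10.36 at the highest. RAO-affected horses read 8.29, 10.32 and 11.67. Control 5 stood with the RAO-affected horses, and only 2 of these, RAO-affected 8 and 10, were above it. The other 6 controls, from 5.88 to 7.42, were all below the lowest RAO-affected horse. The means were 9.95 ± 1.25 (SD, n = 7) and 7.10 ± 1.52 (SD, n = 7), a difference of 2.85 (SE 0.70) or 7.22-fold. The probe was not well above background in control 7. With normexp background correction the SAA difference was 1.96.

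Control 5 stood high for all 3 genes. It exceeded the mean of the other 6 controls by 3.0 for DEFB4A, 2.04 for DEFB4B and 3.81 for SAA. Without control 5, all 7 RAO-affected horses lay above all other controls for each gene. The differences were then 3.74 for DEFB4A (13.4-fold, controls 10.47 ± 0.71, SD, n = 6), 3.15 for DEFB4B (8.89-fold, controls 12.35 ± 1.22, SD, n = 6) and 3.40 for SAA (controls 6.56 ± 0.54, SD, n = 6).

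Within each of the 4 slides the RAO-affected horses averaged higher than the controls for every gene. The DEFB4A difference was even across slides, at 3.55, 3.14, 3.51 and 3.21 for slides 1 to 4. DEFB4B gave 3.49, 3.21, 2.26 and 2.19. SAA varied most, with 1.34, 2.11, 5.01 and 3.41, and its lowest value came from the slide that holds control 5. Each slide held 1 or 2 horses per group, so these values carry no test.

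The signals of the 2 defensins ran in parallel across horses. The difference between DEFB4B and DEFB4A on the same array is not a ratio of their transcripts, since probes differ in binding, but its change from array to array can be read. On the 8 arrays of slides 2 to 4 where DEFB4B was not saturated, this offset stayed between 1.79 and 2.27 (median 2.10, SD 0.16). DEFB4A itself ranged over 3.25 there, a range that includes the group difference by which both genes were chosen. Within the 5 controls of this set DEFB4A ranged over 1.02 and the offset over 0.49. Within the 3 RAO-affected horses the ranges were 1.37 and 0.16. The median offset was 2.13 in these controls and 2.0 in these RAO-affected horses. On the 3 saturated arrays it was −0.17, 0.36 and 2.01.

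On slide 1 the offset was 0.77, 0.78 and 0.92, below every unsaturated array of the other slides, in controls 3 and 5 and RAO-affected 4 alike. The second DEFB4B probe showed the same step, from 0.27 to 0.39 on slide 1 and from 1.30 to 1.87 on the 9 other unsaturated arrays. The offset between the first and the fifth DEFB4A probe showed no such step, at 0.52 to 0.55 on slide 1 and 0.43 to 0.64 on the other unsaturated arrays. The part of the slide or of these 3 horses in the step was not tested, and slide and horse cannot be told apart.

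**Figure D2:**
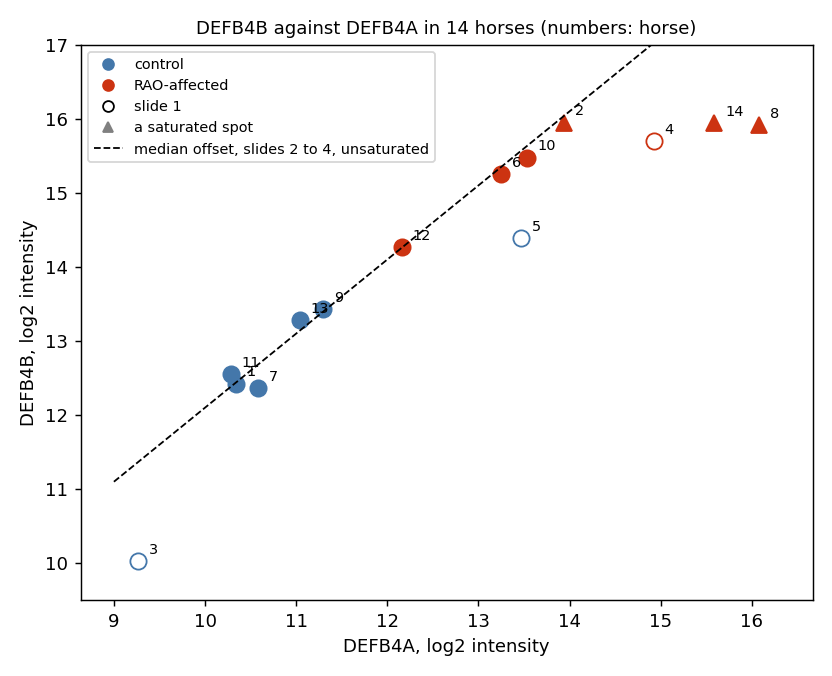
DEFB4B (vertical axis) against DEFB4A (horizontal axis), both in log2 intensity, for 14 numbered horses; the dashed line is the median offset of 2.10 over the 8 unsaturated arrays of slides 2 to 4. Slide 1 (open symbols) lies below the line, and RAO-affected 8 and 14 (triangles, saturated) lie below it at the ceiling of DEFB4B.

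Relations among the genes were tested within each group of 7 horses, with exact permutation of the pairings, 2-sided, and adjusted over the 6 relations of each coefficient. DEFB4A and DEFB4B gave r = 0.89 in controls (exact p = 0.0214, adjusted 0.0643) and r = 0.83 in RAO-affected horses (exact p = 0.0105, adjusted 0.0631). Their rank correlations were rho = 0.86 (exact p = 0.0238, adjusted 0.143) and rho = 0.75 (exact p = 0.0663, adjusted 0.199). Without the 2 horses farthest from the median of DEFB4A, r was 0.92 in controls and 0.72 in RAO-affected horses. No relation passed the adjustment on these probes. With the mean over each gene's probes, the RAO-affected r was 0.88 (exact permutation, adjusted p = 0.0321).

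SAA followed the defensins less closely in these values, although the difference between the correlations was not tested. With normexp the order by r was reversed in controls, at 0.90 for DEFB4A with SAA and 0.84 for DEFB4A with DEFB4B. By rho it was kept there, at 0.21 and 0.86. With DEFB4A, r was 0.80 in controls (exact p = 0.0893, adjusted 0.179) and rho 0.21 (exact p = 0.662, adjusted 0.794). Without controls 3 and 5, r fell to 0.24. Control 5 was the highest control for both genes, while control 3 was the lowest for DEFB4A (9.26) and at rank 3 for SAA (6.91). The correlation without control 5 alone was not computed. In RAO-affected horses r was 0.43 (exact p = 0.346, adjusted 0.415) and rho 0.32 (exact p = 0.498, adjusted 0.746), with r = 0.46 without horses 8 and 12. Under 75th percentile scaling this r was 0.43, and −0.11 without horses 8 and 14.

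With DEFB4B, SAA gave r = 0.50 in controls (exact p = 0.239, adjusted 0.359), rho = 0.36 (exact p = 0.444, adjusted 0.746) and r = 0.47 without controls 3 and 5. In RAO-affected horses it gave r = 0.01 (exact p = 0.975, adjusted 0.975), rho = −0.07 (exact p = 0.906, adjusted 0.906) and r = −0.25 without horses 6 and 12. With the mean over the probes of each gene r was 0.12, and 0.48 without horses 12 and 14, so the sign in this group depends on the probe and on the horses. RAO-affected 12 shows how the genes part: it was the lowest RAO-affected horse for both defensins, at 12.16 and 14.27, but its SAA of 10.34 was near the group's median.

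**Figure D3:**
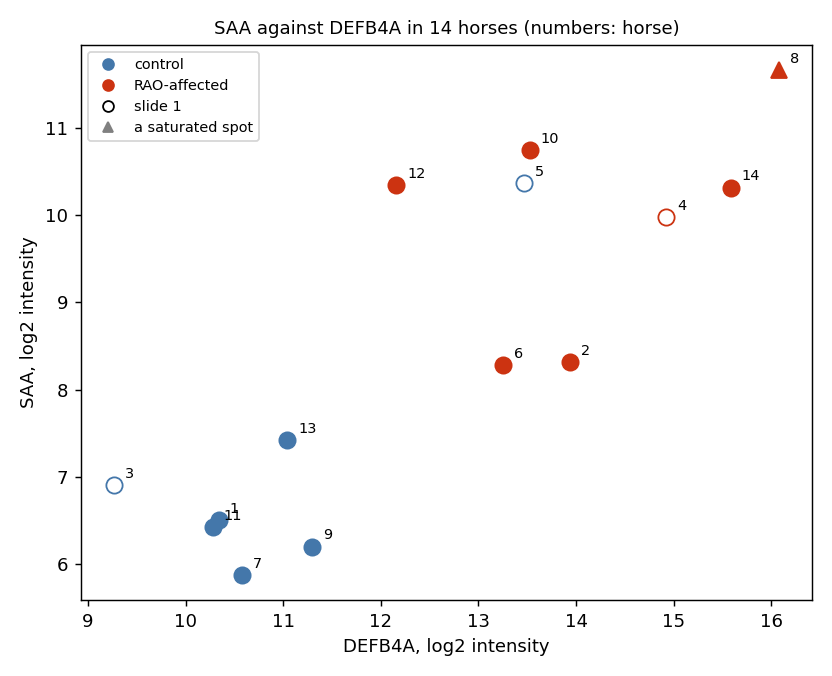
SAA (vertical axis) against DEFB4A (horizontal axis), both in log2 intensity, for 14 numbered horses, with open symbols for slide 1 and a triangle for the saturated spot of RAO-affected 8. Control 5 lies among the RAO-affected horses, and RAO-affected 2 and 6 have the lowest SAA of their group.

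Of the other genes that could be named, those closest to each member across the 14 horses, after each group's mean was taken off, are given as a description. The ranking covered 452 named genes for each defensin and 453 for SAA, with 1 probe a gene. Closest to DEFB4A came DEFB4B (r = 0.80), MMP9, a gelatinase of neutrophil granules (0.73), SOD2, the mitochondrial superoxide dismutase (0.67), CD14, the lipopolysaccharide co-receptor of monocytes and macrophages (0.65), and CGA, the alpha chain of the glycoprotein hormones (0.64). SAA stood at rank 7 with r = 0.62.

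Closest to DEFB4B, after DEFB4A, came PTGES, a prostaglandin E synthase (0.74), ILT11A (0.68), ABR (0.66), and CGA (0.60). In controls these correlations were 0.82 for PTGES, 0.84 for ILT11A, 0.85 for ABR and 0.57 for CGA. In RAO-affected horses, where DEFB4B was saturated in 3 of 7, they were −0.04, 0.12, −0.03 and 0.92 in the same order, and the difference between the groups was not tested. SAA stood at rank 23 with r = 0.36, a value that 3.47% of probes reached.

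Closest to SAA was CD14, with r = 0.88 over all horses, 0.89 in controls and 0.87 in RAO-affected horses. Control 5 stood far above the other controls for both genes. Its SAA was 10.36 against 7.42 in the next control, and its CD14 was 15.80 against 14.36. The correlation without control 5 was not computed, so the control value may rest on that horse. Also among the closest were the palmitoyltransferase ZDHHC9 (0.79), the gasdermin GSDME (0.78) and the aggrecanase ADAMTS4 (0.77). The defensins ranked 21 and 118.

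The genes around the members were read from lists of 115 names, of which 25 were located on the array and 24 tested. CD14 alone was called, higher in RAO-affected horses, or 4.17% of those tested beside 1.1% of all probes. None was called lower. In all lists, called genes were named because they were called. The exact permutation p given for them repeats the same contrast and is not separate support. The median over all probes tested was −0.03.

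Of the cytokines that induce these genes, 9 of 15 were located and tested, none was called, and their median difference was 0.17. IL22 is on this list and was not located, and the study reported it among its top up-regulated genes. The counts here therefore do not cover all inducers. The 3 with the highest signal were IL18, IL6 and IL1B. IL18, an inflammasome product, read 15.20 ± 0.40 against 15.03 ± 0.15 (SD, n = 7 each; exact permutation p = 0.381, limma adjusted p = 0.952). IL6, the main inducer of the acute phase, read 10.73 ± 1.62 against 10.38 ± 0.49 (SD, n = 7 each), a difference of 0.35 that became −0.23 without RAO-affected 8 (exact permutation p = 0.787, limma adjusted p = 0.987). IL1B, an inducer of both gene families, read 11.34 ± 1.43 against 10.42 ± 0.31 (SD, n = 7 each; exact permutation p = 0.0594, limma adjusted p = 0.901). Its difference of 0.92 fell to 0.42 without RAO-affected 8. IL17A, named here after its values were seen, read 5.37 ± 1.12 against 5.36 ± 0.74 (SD, n = 7 each) and stood clear of background in 4 control and 3 RAO-affected horses.

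Among receptors of the products, 1 of 4 tested genes was called, with a median difference of 0.50. CD14 ran from 13.45 to 15.80 in controls (median 14.16) and from 14.39 to 15.91 in RAO-affected horses (median 15.43). It differed by 1.11 (SE 0.33), or 2.16-fold (exact permutation p = 0.0117, limma adjusted p = 0.873). Control 5 was the highest control, and only 2 RAO-affected horses lay above it. Without control 7 the difference was 0.98 and CD14 was not called. TLR4, the receptor that works with CD14, missed the 2-fold rule at a difference of 0.58 (SE 0.19, exact permutation p = 0.00816, limma adjusted p = 0.873), with 5 of 7 RAO-affected horses above every control; it was named after its values were seen.

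The remaining lists had no call. Acute-phase proteins other than SAA had 3 of 29 names located, with a median difference of 0.06. Other antimicrobial peptides and proteins had 5 of 33 located and 4 tested, with a median of −0.13; the cathelicidin ECATH3, named after its values were seen, was saturated on all 14 arrays. Receptors and signal proteins of the inducers had 4 of 26 located, with a median of 0.09.

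**Figure D4:**
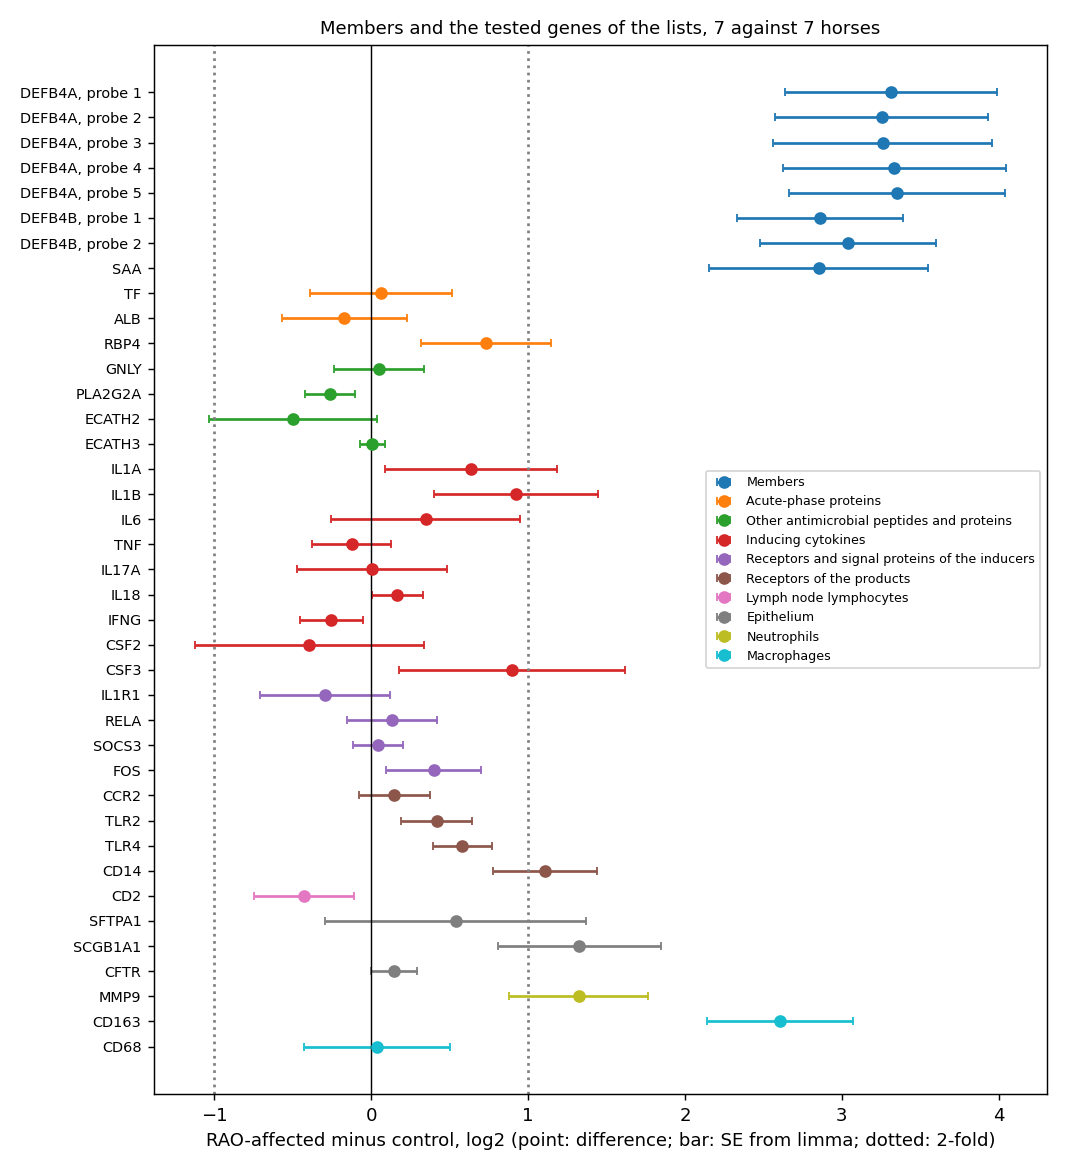
RAO-affected minus control difference in log2 intensity (horizontal axis, 7 against 7 horses) for the 8 probes of DEFB4A, DEFB4B and SAA and for each tested gene of the lists, with bars for the limma SE and dotted lines at 2-fold. The members lie between 2.85 and 3.35, and of the other genes CD14, SCGB1A1, MMP9 and CD163 lie beyond 2-fold.

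Markers of the cells that a node piece could hold were located in small numbers. Over all probes tested 1.1% were called higher, and with so few markers nothing is read from the counts of calls. Of 16 lymphocyte markers 1 was located, CD2, a T and NK cell receptor, at 13.61 ± 0.74 against 14.03 ± 0.48 (SD, n = 7 each), and it was not called. None of the 4 stromal markers was located. Of 20 epithelial markers 3 were located, and SCGB1A1, the club cell secretory protein, was called at 14.19 ± 1.17 against 12.86 ± 0.88 (SD, n = 7 each; 2.51-fold, exact permutation p = 0.0344, limma adjusted p = 0.873). SCGB1A1 lost its call without control 5 (difference 1.15) or RAO-affected 6 (1.07). SFTPA1, a surfactant protein of the alveoli, differed by 0.54 and was not called, and neither was CFTR at 0.14. SFTPC and ESRP1 are on the epithelial list and were not located, and the study reported both among its top up-regulated genes.

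Of 14 neutrophil markers 1 was located, MMP9, and it was called at 14.76 ± 0.82 against 13.44 ± 0.93 (SD, n = 7 each; 2.50-fold, exact permutation p = 0.0204, limma adjusted p = 0.873). Of 12 macrophage markers 3 were located and 2 called, CD163 and CD14, the latter already counted among the receptors of the products. CD163, the haemoglobin scavenger receptor of macrophages, read 12.39 ± 1.03 against 9.78 ± 0.80 (SD, n = 7 each), or 6.10-fold, with all 7 RAO-affected horses above every control (exact permutation p = 0.000583, the smallest this design allows; limma adjusted p = 0.873). CD68 differed by 0.04. Of 6 hepatocyte markers ALB alone was located, at 8.16 ± 1.1 against 8.33 ± 0.17 (SD, n = 7 each). The part of any of these cells in the defensin and SAA values was not tested.

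The horses are described next by the epithelial markers beside the members, with no test. Control 5, the highest control for DEFB4A, DEFB4B, SAA, CD14, CD163 and MMP9, was the lowest control for SCGB1A1 (11.82) and SFTPA1 (8.21) but not for CFTR, at 9.68 with a lowest control of 9.54. RAO-affected 4 had the lowest SCGB1A1 (12.42) and SFTPA1 (8.61) of its group and stood at rank 3 of 7 for DEFB4A, 4 for DEFB4B and 5 for SAA. RAO-affected 6 had the highest SCGB1A1 of its group (15.71) and the lowest SAA (8.29), and stood at rank 6 for both defensins. RAO-affected 2 had the highest SFTPA1 of its group (14.20) and the second SAA from the bottom (8.32). Its DEFB4B was saturated on the first probe (15.95), as in RAO-affected 8 and 14, so their order cannot be read there. On the second probe it read 15.53, unsaturated, below RAO-affected 8 (16.00) and 14 (15.99). RAO-affected 14 stood at rank 2 for DEFB4A and rank 3 for SCGB1A1 (14.94), with DEFB4B saturated on both probes. RAO-affected 8 was the highest of its group for DEFB4A, SAA, CD14, CD163, IL1B and IL6, at rank 5 for SCGB1A1 and rank 6 for SFTPA1.

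**Figure D5:**
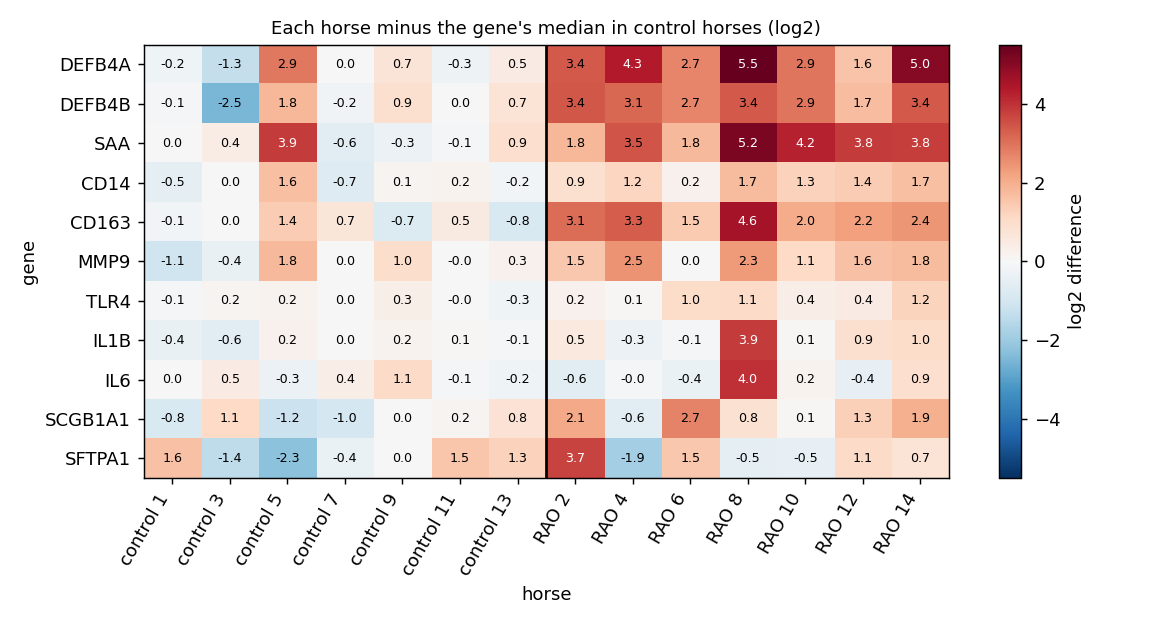
Log2 intensity of 11 genes in each of 14 horses, as the difference from the gene's median in control horses (colour and printed value), with horses on the horizontal axis and genes on the vertical axis. Control 5 is red for the members, CD14, CD163 and MMP9 and blue for SCGB1A1 and SFTPA1, and RAO-affected 8 stands out for IL1B and IL6.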

How the data were processed

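Lymph node RNA of 7 RAO-affected and 7 control horses was hybridised to 1-colour Agilent arrays, and grouping followed the sample labels. The intensity values were deposited by the authors as scanner output of Feature Extraction (10.5.1.1 per the file headers, 9.1 in the submitters' processing notes), already background-corrected. A second table deposited by the authors holds a ratio per probe and array, used as an alternative. The authors' methods state quantile normalization and paired t-tests, and the pairs are not given in the sources used here.

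Here the 1417 control spots of each array and outlier spots were left out, the processed intensity was put on the log2 scale and quantile-normalized, and a probe entered the fit if 4 or more of the 14 arrays had it well above background. R 4.3.3 with limma 3.58.1 (lmFit, eBayes, Benjamini-Hochberg) fitted RAO-affected against control over all probes, and was tested on simulated data. Correlations and single genes were tested by exact permutation in Python 3.11.15 with scipy 1.17.1. The probe with the highest mean stood for a gene. Only 1251 probes (2.87%) could be named, 1231 through RefSeq (TB-T2T gene table) and 20 through the study's primer table. Named were the members, called list genes (at most 6 a list), the 3 inducers with the highest signal and the 5 genes most like each member, of which 1 is not reported here. CD2, SFTPA1, CFTR, CD68, ALB, TF, RBP4, TLR4, IL17A and ECATH3 fall outside this rule and were named after their values were seen. PTX3, IL22, SFTPC and ESRP1 were not located and are named from the study's own report. The members and lists were chosen with earlier results of these data known. Alternatives were 75th percentile scaling, normexp (offset 50), the ratio table, slide as a block, other filters, other probes, an unpaired t-test and leaving out each horse. The number of arrays limits the precision.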

Additional observations from a re-analysis of the deposited data

Results flagged for a closer look

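Within the groups of 7 horses, 5 values stood far from the rest of their group by Dixon's criterion, among 36 probe and group combinations looked at. Chance gives about 1 in 20 for independent values. These combinations include all 5 probes of DEFB4A and are not independent. DEFB4B was lowest in RAO-affected 12, at 14.27 against 15.25 in the next horse, on its first probe, which was saturated in 3 RAO-affected horses. The second DEFB4B probe read 13.71 against 14.82 in the same horses and was not flagged. SAA was highest in control 5, at 10.36 against 7.42 in the next control. CD14 was highest in the same horse, at 15.80 against 14.36. IL1B was highest in RAO-affected 8, at 14.37 against 11.51 in the next horse, and IL6 in the same horse, at 14.22 against 11.11.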

How the results depend on the processing

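The differences of the 3 genes kept their direction under every alternative run, from 3.0 to 3.74 for DEFB4A, 2.43 to 3.15 for DEFB4B and 1.96 to 3.46 for SAA. The genes were chosen on this same contrast in these arrays, so these ranges are a description and not separate support. The count of called probes, 569, was 262 with normexp, 291 with a filter at all 14 arrays and 1111 without slide 1, an alternative added after seeing the data. Leaving out each horse gave 386 (without RAO-affected 14) to 1117 (without RAO-affected 4). No probe passed the adjusted p under any of the 22 alternatives. In RAO-affected horses the DEFB4A and DEFB4B correlation became 0.88 with the mean over probes and 0.89 with the probe of fewest saturated arrays (also added later), and both passed the adjustment. The DEFB4B and SAA correlation became −0.014 with normexp and −0.25 without the 2 horses farthest from the median, but 0.12 with the mean over probes and 0.19 with the probe of fewest saturated arrays (0.48 and 0.32 without the 2 farthest horses of each setting). In controls the DEFB4A and SAA correlation became 0.90 with normexp and 0.24 without the 2 farthest horses. Leaving out each horse moved the IL6 difference from −0.23 (without RAO-affected 8) to 0.54. CD14 lost its call without control 7 (0.98), and SCGB1A1 without control 5 (1.15) or RAO-affected 6 (1.07). The cause was not tested. No paired analysis was possible because the groups share no replicate number and the sources used here do not say which horses were paired. Saturation limits DEFB4B in RAO-affected horses, and nearness to background limits SAA in controls.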
